A study of Mus musculus with 2 samples.

Results

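The inflammasome genes examined here numbered 10 of the 15623 genes listed in at least 1 library, and they were picked by name through their NCBI gene numbers. The rule used no measured value, but the genes were chosen with earlier results of these data known. They are the sensors Nlrp3, Nlrp1b, Nlrc4 and Aim2, the adaptor Pycard, the caspases Casp1 and Casp4, and the substrates Gsdmd, Il1b and Il18. Their RNA was measured by sequencing in macrophages from the peritoneal cavity of wild type C57BL/6 mice, either nontreated (NT) or given mouse IL-4 for 6 h. Both groups shared the thioglycollate injection that draws macrophages into the cavity, the selection of adherent cells and a period in low serum, and both were labelled wild type. The age of the mice (young adults) and a dose of IL-4 are stated in the methods of the study and not in the labels, and the number of animals behind a library is in neither. The labels named bone marrow as the tissue although the source was given as peritoneal macrophages. Each group held 1 library, so no difference given here was set against the spread between replicates, and the test used compares 2 libraries and not the conditions.

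Inflammasomes are protein platforms assembled in the cytosol of macrophages when a sensor meets a sign of infection or damage. The sensors NLRP3, NLRP1b, NLRC4 and AIM2 recruit caspase-1, in most cases through the adaptor ASC, which Pycard encodes. Caspase-1 then matures the cytokines IL-1β and IL-18 and cuts gasdermin D, whose freed fragment forms pores in the plasma membrane, while caspase-11, the product of mouse Casp4, detects lipopolysaccharide in the cytosol and cuts gasdermin D directly. In resting macrophages, Nlrp3 and Il1b are known as genes that need a priming signal, such as a Toll-like receptor ligand, to reach high levels, whereas Pycard, Casp1 and Gsdmd are expressed without one. IL-4 signals through Stat6 and drives alternative (M2) polarization, a state known for low inflammatory output.

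The totals were 11035641 expected counts for NT and 11250099 for IL-4. An expected count is an estimate of the reads that belong to a gene. A gene with at most 3 counts in each library was taken as not shown. All 5 genes used to check the response to IL-4 were called higher, namely Arg1, Chil3, Mrc1 and Retnla at log2 ratios from 3.33 to 7.95, and Cish, which went from 0 to 662 counts, at least 216.5-fold higher when 3 counts stand for the 0. All 8 macrophage markers were present, with Lyz2 at 11289 (NT) and 10811 FPKM (IL-4), and of them Csf1r was called higher and Cd14 lower. FPKM is a level scaled for transcript length and for depth, and every comparison between genes here uses it. Of 9 neutrophil markers, Ly6g, S100a9, Camp, Ngp and Retnlg were at 0 in both libraries, and the list summed to 195.1 counts (NT) and 157.9 counts (IL-4). The others, in NT and IL-4, were Cxcr2 (84.1 and 83.9), Mmp8 (74 and 50), S100a8 (35 and 21) and Ltf (2 and 3). Summed counts in NT and then IL-4 were 24.8 and 28.58 for 3 monocyte markers, 113 and 196 for 4 markers of large peritoneal macrophages, 106 and 97 for 5 B cell markers, 42.74 and 30.16 for 5 T and NK cell markers, 39 and 31 for 5 mast cell markers, and 53 and 28 for 4 eosinophil markers. Among the last, Epx and Ear6 were at 0 in both libraries, and Siglecf was called lower. Among the other lists, Ly6c2 of monocytes (0 and 8 counts) and Selp of large peritoneal macrophages (25 and 72 counts) were called higher. The part of other cell types in the results below was not tested, and in bulk RNA fewer cells of a type and less RNA per cell cannot be told apart.

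Of the 10 inflammasome genes, the sensor Nlrp3 fell and the adaptor Pycard rose upon IL-4 stimulation, while the caspases and the substrates that could be measured had log2 ratios from -0.02 to 0.24 and were not called. A call required a log2 ratio (IL-4 over NT) at least 0.75 in size, with an exact two-sided binomial p-value of at most 0.05 and a Benjamini-Hochberg adjusted value of at most 0.5, the limits that the study set. All 10 genes were listed in both libraries, and 9 had over 3 counts in at least 1 library and were given a ratio. Of these 9 genes, 1 was called higher and 1 was called lower, against 4.07% of 15593 tested genes called higher and 6.28% called lower, or 10.4% in either direction. Their median log2 ratio was -0.02, and the median of all tested genes was -0.03. By role, all 4 sensors had ratios under 0, and the adaptor, 1 gene, was at 0.76. The caspases and the measurable substrates lay from -0.02 to 0.24. The intervals of the sensors Nlrc4 and Nlrp1b included 0, and of the other sensors examined below, 6 had ratios over 0 and 6 under 0.

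**Figure D1:**
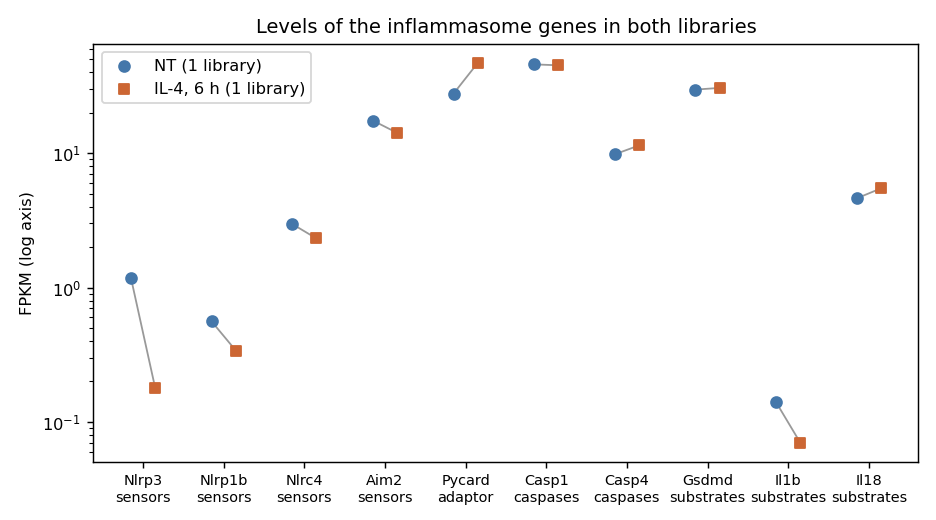
Level of each of the 10 inflammasome genes in FPKM (vertical log axis) in the NT library (circles) and the IL-4 library (squares), 1 library each, with no error drawn. The line of Nlrp3 drops from 1.18 to 0.18 FPKM and that of Pycard climbs from 27.73 to 46.90 FPKM, whereas the lines of Casp1 and Gsdmd are nearly level.

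Nlrp3, the sensor of membrane damage and ion flux, lies on chromosome 11 from 59541569 to 59566955 (GRCm38, RefSeq, as for all coordinates here). It had 53 expected counts (NT) and 8 (IL-4). These were 1.18 FPKM, with a 95% counting interval from 0.884 to 1.54, and 0.18 FPKM, with an interval from 0.0777 to 0.355. The levels of the libraries thus did not overlap in counting error. The log2 ratio was -2.68, a 6.42-fold lower abundance, with a 95% interval from 3.19-fold to 16.45-fold (exact binomial test, Benjamini-Hochberg adjusted p = 1.73e-08). Of the 9925 tested genes with at least 50 counts in 1 library or both, 5 had a ratio as low as that of Nlrp3 or lower, Nlrp3 included. Nlrp3 itself met that limit only through NT, the library where it was high, so the rank is a description and no separate support. The call rests on 61 reads, and of 1984 tested genes with 20 to under 100 reads in all, 13.7% were called lower. None of the 31-base words of its transcript occurred in the transcripts of another gene. Nlrp3 lost its call when the variation between samples was assumed to be large (a biological coefficient of variation of 0.4 in the edgeR exact test), and with 1 added to FPKM its log2 ratio was -0.89.

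The windows upstream of Nlrp3 and Pycard are shown because these were the 2 members whose calls passed. Each sequence is the stretch of 250 bases that ends just before the start site of the quantified transcript, from RefSeq on GRCm38.p6, written 5′ to 3′ on the strand of the gene. Capitals mark a match to a STAT6 type motif, TTCNNNNGAA, found in the stretch of Nlrp3, and no motif searched was found in that of Pycard. That of Nlrp3 is chr11:59542436-59542685 on the plus strand, and that of Pycard is chr7:127993868-127994117 on the minus strand.
Nlrp3: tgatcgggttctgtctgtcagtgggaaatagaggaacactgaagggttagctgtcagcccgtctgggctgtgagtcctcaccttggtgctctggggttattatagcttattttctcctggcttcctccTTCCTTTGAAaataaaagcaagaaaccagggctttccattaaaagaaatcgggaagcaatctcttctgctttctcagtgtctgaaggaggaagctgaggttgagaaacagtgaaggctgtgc
Pycard: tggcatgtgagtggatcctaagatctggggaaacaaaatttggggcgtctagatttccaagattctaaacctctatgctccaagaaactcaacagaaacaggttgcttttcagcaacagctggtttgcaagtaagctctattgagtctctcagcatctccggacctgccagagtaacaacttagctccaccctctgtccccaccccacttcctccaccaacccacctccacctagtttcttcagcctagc

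The match in Nlrp3, TTCCTTTGAA, begins 122 bases before the start site. RefSeq windows were matched for 9 of the 10 members, all but Gsdmd. The motif searches covered both strands of 300-base windows, which run on to 50 bases past the start site. The STAT6 type motif was present in 6.95% of 32851 promoter windows of all genes, the spacing TTCNNNGAA in 8.30%, the interferon response core GAAANNGAAA in 3.44% and the kappaB motif of NF-κB in 8.46%. Another window, at a start site 1117 bases upstream in Nlrp3, held a kappaB match, GGGAACCCCC. The windows of Casp4, at start sites 11 bases apart, held the same 3 kappaB matches on either strand, of which GGGGATTTCC and GGGATTTCCC overlap, and GGAAGTCCCC stands apart from them. The window of Il18 held 1 STAT6 type match, TTCCCCAGAA, as did 1 of the 2 windows of Nlrp1b, TTCTGATGAA. The windows of Pycard, Casp1, Il1b, Nlrc4 and Aim2 held none of the 4 motifs. Those of Il18 and Aim2 lie 10674 and 69725 bases from the start of the quantified transcript. A match is a description of these letters, and binding was not measured.

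The other sensors had ratios under 0 that missed the threshold. Aim2, the sensor of DNA in the cytosol (chromosome 1, 173349547 to 173466040), was by far the most abundant of them. It had 491.83 expected counts (NT) and 406.84 (IL-4), or 17.48 and 14.17 FPKM. At -0.30 on the log2 scale (interval -0.49 to -0.11) it was not called, although the interval left out 0. Nlrc4, the platform that responds to bacterial flagellin and secretion needles (chromosome 17, 74426255 to 74459144), had 127 counts (NT) and 101 (IL-4), or 2.97 and 2.32 FPKM. The interval of its log2 ratio of -0.36, from -0.75 to 0.03, included 0. Nlrp1b, a sensor that responds to anthrax lethal factor in some mouse strains (chromosome 11, 71152574 to 71242514), had 26.10 and 16.16 counts, or 0.56 and 0.34 FPKM. Its log2 ratio of -0.70 had an interval from -1.72 to 0.22, which included 0, so at 42 reads a difference was not resolved.

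Some reads of Aim2, Nlrc4 and Nlrp1b may be shared with other genes. Of the 31-base words of the GENCODE transcript, 6.59% for Aim2, 3.45% for Nlrc4 and 5.71% to 6.48% for Nlrp1b occur in transcripts of other genes. The GENCODE transcripts of Aim2 and Nlrc4 have 2839 and 4729 bases. Those are longer than the 2541 and 3838 bases used in the deposited tables, so the shares may differ there. Nlrp1a, the closest of these to Nlrp1b, had 94.75 counts (NT) and 69.26 (IL-4). Summed, Nlrp1a and Nlrp1b stood at log2 -0.53 (interval -0.95 to -0.13) and were not called. This sum was chosen after the values had been seen. The summed expected counts of the 4 sensors among the members were 697.93 (NT) and 532 (IL-4), and without Nlrp3 they were 644.93 and 524. The log2 ratio of the latter sum was -0.33, with an interval from -0.50 to -0.16. Most of these counts were those of Aim2.

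Pycard, the adaptor that joins sensors to caspase-1, was the 1 member that rose. It lies on chromosome 7 from 127991373 to 127993867 and had 654 expected counts (NT) and 1128 (IL-4). The levels were 27.73 FPKM (counting interval 25.6 to 29.9) and 46.90 FPKM (44.2 to 49.7), and the intervals did not overlap. The log2 ratio was 0.76, a 1.69-fold higher abundance, with an interval from 1.54-fold to 1.87-fold (exact binomial test, Benjamini-Hochberg adjusted p = 3.85e-26). That interval spans the threshold, and the call was lost under 6 of 13 alternatives, among them a log2 ratio of 0.70 after subtraction of the length trend. The direction stayed the same, with log2 ratios from 0.70 to 0.80. Only the alternatives that change the scaling, use FPKM or subtract the length trend alter the ratio. Under the others the direction could not change. Of the tested genes with at least 50 counts in 1 library or both, 4.25% had a ratio as high as that of Pycard or higher. A gene on the opposite strand, Gm45205, overlaps Pycard in the GENCODE annotation and shares 12.1% of the 31-base words of its GENCODE transcript. That transcript, of 3800 bases, is longer than the 2135 bases used in the deposited tables, and reads of overlapping genes on opposite strands cannot be told apart where libraries keep no strand.

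**Figure D2:**
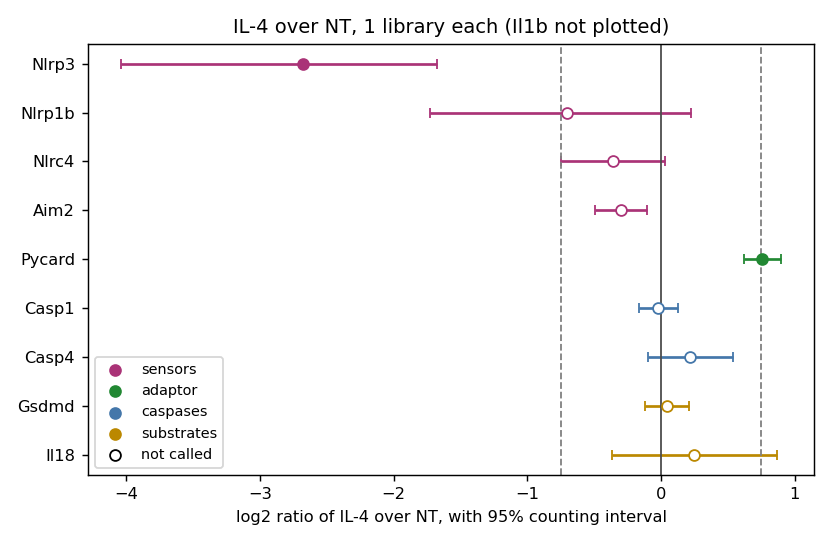
Log2 ratio of IL-4 over NT (horizontal axis) for the 9 inflammasome genes with over 3 counts in a library, with 95% counting intervals as bars and the threshold of 0.75 in size as dashed lines. Filled points are called. Nlrp3 stands alone on the left at -2.68, the interval of Pycard spans the right threshold, and the intervals of Casp1, Casp4, Gsdmd and Il18 include 0.

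Neither of the caspases was called. Casp1 and Casp4 are neighbours on chromosome 9, from 5298517 to 5307281 and from 5308849 to 5336791, with 1567 bases between them. Casp1, the caspase that matures IL-1β and IL-18, had 770 expected counts (NT) and 773 (IL-4), or 45.79 and 45.06 FPKM. Its log2 ratio was -0.02, and the interval from -0.17 to 0.12 lay well inside the threshold on both sides. Casp4 had 155 and 184 counts, or 9.81 and 11.41 FPKM, at log2 0.22 and with an interval from -0.10 to 0.54. A change in Casp4 of the size of the threshold thus lay outside its interval, as far as counting error goes. Casp12, a neighbouring caspase gene, had 7 and 3 counts and was not called.

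Gsdmd, which encodes the pore former gasdermin D, was also not called. It lies on chromosome 15 from 75862144 to 75867408 and had 581 expected counts (NT) and 610 (IL-4), or 29.72 and 30.59 FPKM. The log2 ratio was 0.04, with an interval from -0.12 to 0.21. The cytokine substrates were far less abundant. Il18 (chromosome 9, 50554700 to 50581841) had 43 and 52 counts, or 4.61 and 5.47 FPKM, and a log2 ratio of 0.24 whose interval from -0.36 to 0.86 includes both 0 and the threshold. Il1b (chromosome 2, 129364569 to 129371164) had 2 counts (NT) and 1 (IL-4), or 0.14 and 0.07 FPKM. Both were under the least amount taken as shown, so no fold is given. Its relative Il1a, which needs no caspase-1 for its activity, had 269 counts for NT and 309 for IL-4 (log2 ratio 0.17, interval -0.07 to 0.41).

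The order of the levels per length was much the same in the 2 libraries apart from Pycard and Nlrp3. In the NT library it ran, from high to low, Casp1, Gsdmd, Pycard, Aim2, Casp4, Il18, Nlrc4, Nlrp3, Nlrp1b and Il1b. The counting intervals of neighbours overlapped for Gsdmd and Pycard, for Il18 and Nlrc4, and for Nlrp1b and Il1b, so the order of these pairs was not resolved. In the IL-4 library Pycard came first and Nlrp3 stood behind Nlrp1b. There, neighbours overlapped for Pycard and Casp1, for Aim2 and Casp4, for Nlrp1b and Nlrp3, and for Nlrp3 and Il1b. Pycard had a higher FPKM than 83.6% of the listed genes under NT and 89.2% under IL-4. Nlrp3 was above 30.5% and 15.3% of them. Casp1 was above 89.7% and 88.9%, and Il1b above 12.4% and 7.09%. The FPKM of Casp1 was 1.65 times that of Pycard under NT and 0.961 times under IL-4, and that of Aim2 was 14.8 times and 78.7 times that of Nlrp3. The ratio of Gsdmd to Casp1 was 0.649 and 0.679.

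The ratios of all genes fell with transcript length, and the sensor genes are the longest of the members. Across 8463 genes with at least 200 reads, the Spearman correlation of the log2 ratio with length was -0.45, given as a description across genes, which share both libraries. Transcripts of Nlrp3, Nlrp1b and Nlrc4 were 4021, 4155 and 3838 bases long in the NT table, whereas those of Casp1, Casp4, Gsdmd and Il18 ran from 866 to 1776 bases. For each gene, the length trend is the median log2 ratio of its 200 nearest neighbours in length, taken from these 8463 genes. It was -0.07 at the length of Nlrp3 and 0.23 at that of Il18. With it subtracted, Nlrp3 was at -2.61 and was still called, Aim2 was at -0.35, Nlrc4 at -0.28 and Nlrp1b at -0.61. The ratios of all 4 sensors stayed under 0, but 3 of the 4 were not called, and the intervals of Nlrc4 (-0.68 to 0.10) and Nlrp1b (-1.63 to 0.32) included 0. Casp1 was at -0.16, with an interval from -0.31 to -0.01 that left out 0, and Gsdmd was at -0.08, on the other side of 0 from its main value. Neither was called.

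**Figure D3:**
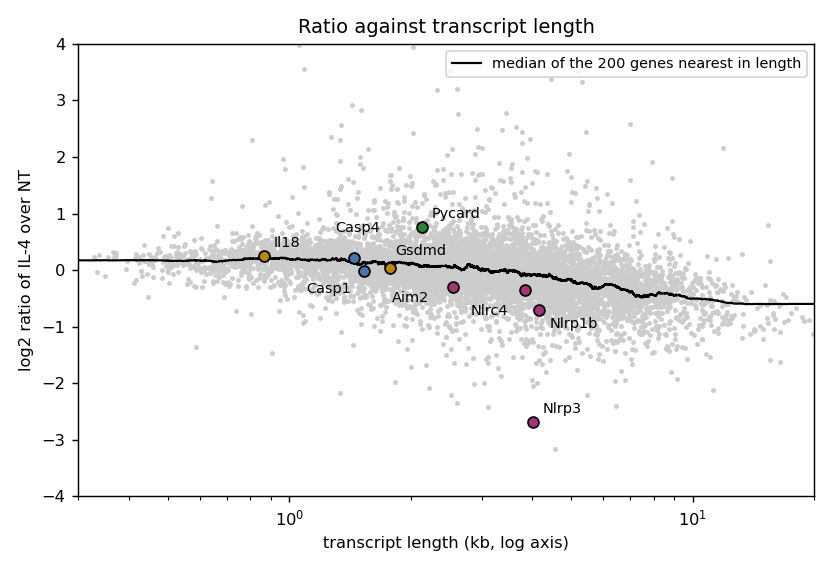
Log2 ratio of IL-4 over NT (vertical axis) against transcript length in kb (horizontal log axis) for genes with at least 200 reads (grey), of which 22 lie outside the axes, with the 9 inflammasome genes coloured by role as in the plot of ratios (Nlrp3, Nlrp1b and Il18 had under 200 reads). The black line is the median of the 200 genes nearest in length. Nlrp3 lies 2.61 under the line and Pycard 0.70 above it.

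To set the members beside the rest of their pathway, 79 other genes in 6 lists were examined, of which 72 were listed and 69 had a ratio. Of these 69 genes, 6 were called higher and 9 lower, beside 4.07% and 6.28% of all tested genes, with a median log2 ratio of -0.02 (-0.03 over all tested genes). The lists were written with earlier results of these data known, so their counts are a description. The other sensors held 7 of the 15 calls, 3 higher and 4 lower among 12 genes with a ratio. Ifi204, a DNA sensor of the same family as Aim2, rose from 402.35 to 1179.28 expected counts and from 15.80 to 45.41 FPKM (log2 ratio 1.52, interval 1.36 to 1.69). Zbp1, a sensor of nucleic acid in Z form, rose from 122 to 347 counts (log2 ratio 1.48). Mefv, which encodes pyrin, rose from 28 to 61 counts (log2 ratio 1.08, interval 0.43 to 1.80). Ifi203, of the same family as Ifi204, had 385.61 and 475.59 counts and was not called. Counts of Aim2, Ifi203 and Ifi204 are not whole, so some reads may be shared with other genes. Their sum, taken after the values were seen, went from 1279.79 to 2061.71 counts. Its log2 ratio of 0.66 (interval 0.56 to 0.76) was under the threshold.

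The NAIP proteins bind flagellin or parts of the secretion needle and hand the signal to NLRC4, and their 4 genes all had ratios under 0. Naip1 fell from 94.05 to 51.54 expected counts (log2 ratio -0.89). Naip2 fell from 1118.14 to 626.24 counts and Naip6 from 325 to 187.55, at log2 ratios of -0.86 and -0.82. Naip5 had 511.67 and 345.56 counts (log2 ratio -0.59), and was not called. Naip2 and Naip6 are named after their values were seen. The calls of Naip1, Naip2 and Naip6 were all lost once the length trend was subtracted, at -0.65, -0.68 and -0.48, with intervals that left out 0. The copies are similar in sequence and most of their counts are not whole, so their sum was taken as well, also after the values were seen. It went from 2048.86 to 1210.89 counts (log2 ratio -0.79, interval -0.89 to -0.68), where the median length trend of the 4 genes was -0.24. Nod2, a sensor of bacterial cell wall that was likewise named after its value was seen, fell from 42 to 22 counts. Nlrp6 and Nlrp12 were at 0 in both libraries.

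None of the 14 measured genes that license or trigger sensors was called, beside 10.4% of all tested genes. The median log2 ratio of that list was 0.03 and the range was -0.53 to 0.65. Its most abundant member was Txnip, which encodes a binding partner of NLRP3, at 69.55 FPKM for NT and 77.06 FPKM for IL-4 (log2 ratio 0.15). P2rx7, the ATP-gated channel that triggers NLRP3, had 868 and 1086 counts, and Nek7, a kinase that binds NLRP3, had 1373.79 and 1816.99. Their log2 ratios of 0.30 and 0.38 were not called. Of the 14 genes, 8 had ratios over 0 and 6 under 0, the lowest being that of Gbp5, a guanylate-binding protein gene, at 234.98 and 165.81 counts.

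Among other cell death genes, 3 of 13 were called higher and 0 lower by the exact binomial test. Of all tested genes, 4.07% were called higher and 6.28% lower. Casp6 rose from 140 to 374 expected counts (log2 ratio 1.39, interval 1.11 to 1.68). Serpinb1a, an inhibitor of inflammatory caspases and neutrophil proteases, rose from 45.18 to 88.61 counts (log2 ratio 0.94). Ripk3, the kinase of necroptosis, rose from 145 to 251 counts (log2 ratio 0.76) and was no longer called with the length trend subtracted. Casp8, the most abundant of the list at 27.19 and 27.10 FPKM, stood at log2 -0.01, uncalled. Of the gasdermins and genes of membrane rupture and repair, 1 of 6 was called, beside 10.4% of all tested genes in either direction. That gene was Gsdme, named after its value was seen, which fell from 40 to 16 counts. Ninj1, which encodes the protein that ruptures the membrane after gasdermin pores form, was at 334.10 FPKM (NT) and 255.88 FPKM (IL-4), a log2 ratio of -0.38 that was not called. The genes Gsdmc, Gsdmc2, Gsdmc3 and Gsdmc4 were at 0 in both libraries.

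Of the IL-1 family ligands, receptors and inhibitors, 1 of 10 with a ratio was called, near the 10.4% of all tested genes. It was Il1rn, the antagonist of the IL-1 receptor, which fell from 674.77 to 391.62 expected counts (24.76 to 14.08 FPKM), at log2 -0.81, with an interval that spans the threshold. Il18bp, the inhibitor of IL-18, had 19 and 34 counts, a log2 ratio of 0.80 whose interval from -0.04 to 1.70 includes 0, and it was not called. Of 14 genes of priming, 3 were called, all lower, beside 6.28% of all tested genes called lower. The median log2 ratio of this list was -0.13. Tlr2, a receptor for bacterial lipoproteins, fell from 609 to 153 counts (log2 ratio -2.02, interval -2.29 to -1.76). Nfkbiz, an inducible regulator of NF-κB targets, fell from 103 to 36 counts (log2 ratio -1.53), and Cd14, a co-receptor for lipopolysaccharide, from 1219 to 591 counts (log2 ratio -1.07). Tlr4 had 1217 and 1207 counts, and Nfkb1 and Rela had log2 ratios of 0.30 and -0.29. These 3 genes were not called.

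**Figure D4:**
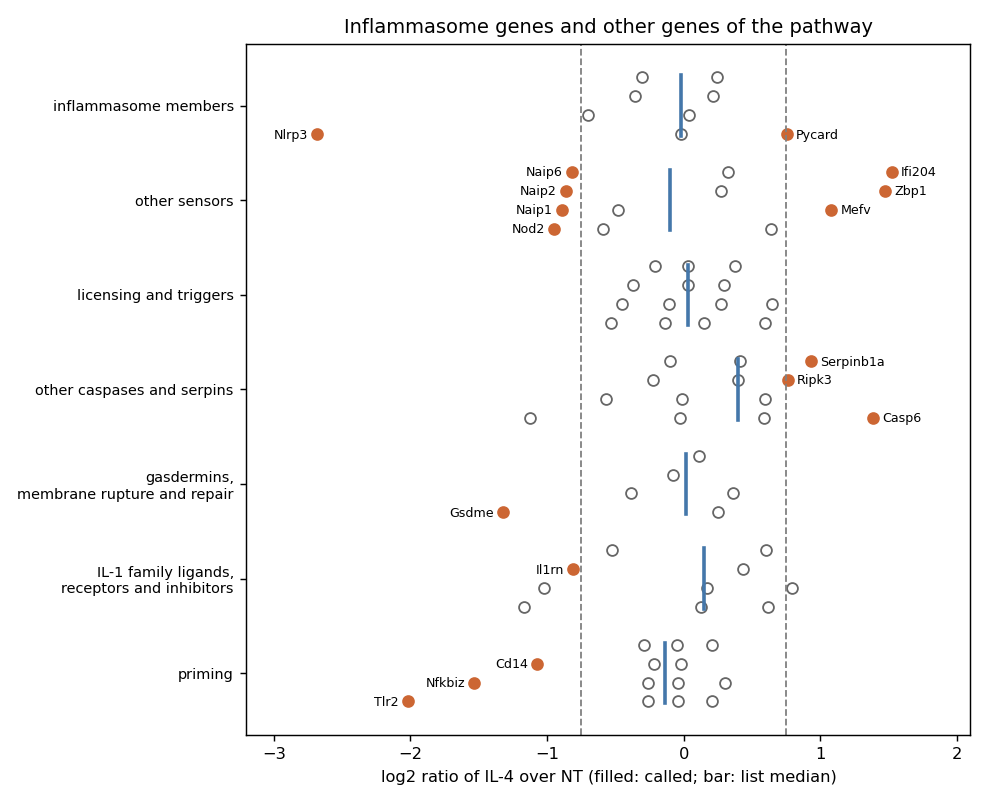
Log2 ratio of IL-4 over NT (horizontal axis) for the inflammasome members and 6 lists of other pathway genes (rows), with called genes filled and named, uncalled genes open, list medians as bars and the threshold as dashed lines. Heights within a row carry no meaning. Of all tested genes, 4.07% were called higher and 6.28% lower. Calls lie on both sides among the other sensors, on the right among the other caspases and serpins, and on the left among the priming genes.

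Across the alternatives, Nlrp3 held its call more firmly than Pycard. Nlrp3 was called under 12 of 13 alternatives and Pycard under 7 of 13. With no test and the log2 ratio alone as the criterion, the called members were again Nlrp3 and Pycard. The other 7 members with a ratio were not called under any of the 13. Casp1 changed sign under 2 of these and Gsdmd under 1, with values from -0.16 to 0.01 and from -0.08 to 0.08.

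**Figure D5:**
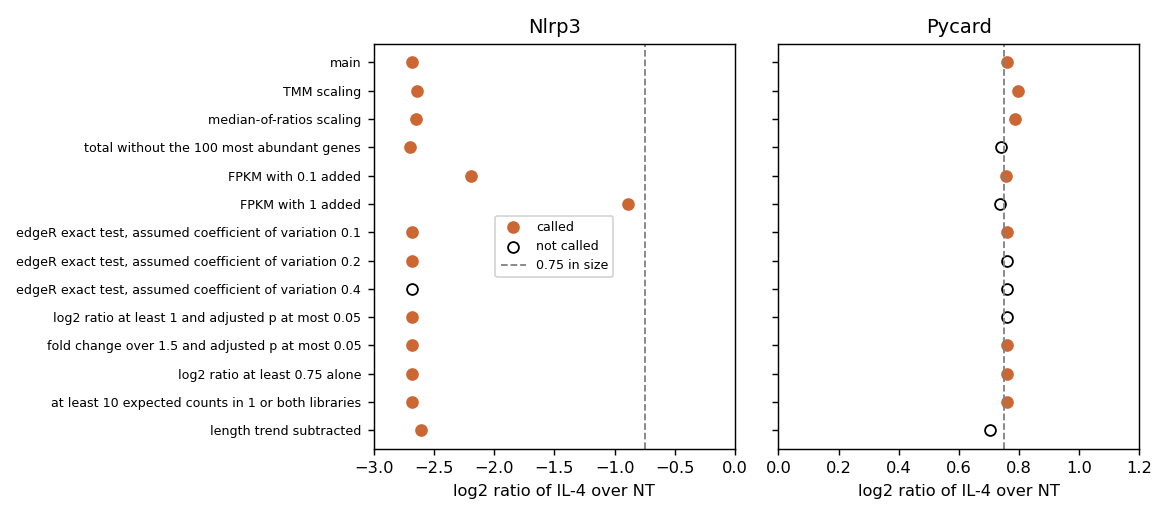
Log2 ratio of IL-4 over NT (horizontal axes) of Nlrp3 (left) and Pycard (right) under the main processing and 13 alternatives (rows), with called values filled, uncalled values open and the threshold of 0.75 in size dashed. Nlrp3 lies past the threshold in every row and is open only at an assumed coefficient of variation of 0.4. Pycard lies close to the threshold throughout, from 0.70 to 0.80. Rows that change only the test, the thresholds or the counts required repeat the main ratio.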

How the data were processed

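RNA sequencing was run on a HiSeq instrument from column-purified total RNA. Per the labels and the study's methods, the authors aligned the reads by Bowtie to mm10 (GRCm38) and used RSEM for quantification, in versions not given in the sources used here. The deposited expected counts are not scaled for depth, and the deposited FPKM values were scaled by the authors for length and depth. The length column, per the file headers, gives bases per gene. A gene missing from a table was set to 0. Symbols were matched for 15587 of 15623 genes through RefSeq (GRCm38.p6).

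The log2 ratio was taken from counts per total with 0.5 count added. Expected counts were rounded for the test, which left 30 genes at 0 on both sides and untested. The test was an exact two-sided binomial test of the reads of each gene, with Benjamini-Hochberg adjustment over all 15593 genes. Intervals are exact 95% intervals (Clopper-Pearson for ratios, Poisson for levels), and they cover counting error only. They may be too narrow even for that, because reads copied by PCR, with no molecular identifiers, need not be separate molecules. The code was tested on simulated counts. The members and lists were chosen with earlier results of these data known. Named genes were all members and, per list, the most abundant gene and up to 4 called genes with at least 50 counts. All other list genes given with values were chosen after their values were seen. Motifs were searched in RefSeq promoter windows, and shared 31-base words in GENCODE M21 transcripts. R 4.3.3, edgeR 4.0.16, DESeq2 1.42.0 (for scaling alone), Python 3.11.15, numpy 2.4.6, scipy 1.17.1 and pandas 2.3.3 were used.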

Additional observations from a re-analysis of the deposited data

How the results depend on the processing

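No paired analysis was possible because the comparison had only 1 library on either side, and no replicate could be left out. In all, 13 alternatives were run. The sums over gene families were added after the data were seen, and the sum of Nlrp1a and Nlrp1b was not called either. Over the members, 110 of 117 values stayed called or uncalled as in the main processing, 7 lost a call and 0 gained one. Also, 0 called values changed direction, which was possible only where the ratio itself was recomputed. The main values were 1 member higher and 1 lower, 635 and 979 of all genes, and 6 and 9 of the other pathway genes.

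The number of members called higher was 0 with the 100 most abundant genes left out of the total, with 1 added to FPKM, under edgeR when the coefficient of variation was set to 0.2 or 0.4, when a log2 ratio of 1 and an adjusted p of 0.05 were both required, and with the length trend subtracted. The number called lower was 0 with a coefficient of 0.4. FPKM with 1 added gave 391 of all genes higher and 399 lower, and 3 and 5 of the pathway genes. A coefficient of 0.2 gave 390 and 423, with 3 and 3 of the pathway, and 0.4 gave 65 and 8, with 0 and 0. A log2 ratio of at least 1 together with an adjusted p of at most 0.05 gave 408 and 476, with 4 of the pathway lower. The log2 ratio alone gave 1693 and 2598, with 15 of the pathway lower. A fold change over 1.5 together with that adjusted p gave 10 of the pathway higher. An added constant shrinks the ratios of genes with low FPKM, and a larger assumed variation raises each p-value. The other scalings shifted all ratios by at most 0.037. Depth limits Il1b (3 reads in all), Nlrp1b, Il18 and also Nlrp3, whose call rests on 61 reads.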
